A study of Mus musculus with 12 samples.

Results

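Serpins are a family of proteins that block proteases, and 8 of them are described here in CD11b dendritic cells (DCs) of mice: Serpina3f, Serpina3g, Serpinb2, Serpinb6a, Serpinb6b, Serpinb9, Serpinb9b and Serping1. They are the rows with these symbols among the 24391 genes of the count table, and they were picked with measured levels already known. The table holds 12 libraries, 3 for each of 4 groups. All animals were wild-type C57BL/6J mice aged 8 to 12 weeks that were given a replication-deficient adenovirus by the airway. The virus was either AdCL, which carries no inserted gene, or AdTGFb1, which carries the pig gene for TGF-β1 in a form that yields active protein, and the series is titled as one on established pulmonary fibrosis. In experiment 1 the AdCL libraries were DC 7, 8 and 9 and the AdTGFb1 libraries DC 14, 52 and 54. In experiment 3 they were AdCL DC 943, 944 and 949 and AdTGFb1 DC 954, 955 and 956. There is no group without virus. Nothing in the sources used here gives the organ, the sorting gate, the time after the vector or whether each library is a separate animal, so p-values below rest on the spread between these libraries, which may be technical.

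A serpin offers its target protease a loop as bait. The protease cleaves the loop, is swung to the far side of the serpin and stays trapped there, so each inhibitor molecule is used up by 1 protease. Clade B members such as Serpinb9 work inside the cell, where they protect it from proteases that leak from granules or lysosomes or arrive from killer cells. Serping1, the C1 inhibitor, is secreted and blocks the first proteases of the complement cascade. Mouse has expanded several of these genes into clusters of close copies, so a read can fit more than 1 of them.

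Libraries held between 10099912 and 15594546 reads on genes. Levels are in CPM, counts scaled by TMM library sizes, and a floor of 3 counts is worth 0.181 to 0.31 CPM. The 3 AdCL libraries of experiment 1 and AdTGFb1 DC 14 were male by Xist and Ddx3y, and the other 8 were female, so sex moved with both experiment and vector. With a term for sex, the vector effect in experiment 1 rests on AdTGFb1 DC 14 against the male AdCL libraries. Calls lost with that term, for that effect or its difference from experiment 3, are thus not read as effects of sex. All 10 markers of CD11b DCs were detected, but 6 were called lower and 1 higher with AdTGFb1. Their sum was 27672 to 30714 CPM with AdCL and 18353 to 22510 CPM with AdTGFb1 in experiment 1, and 26200 to 35309 and 23473 to 29292 CPM in experiment 3. Across the 13221 genes that passed the low-count filter, edgeR's quasi-likelihood test called 17.2% between the vectors over both experiments (6.78% higher and 10.4% lower with AdTGFb1).

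The stretches upstream of 2 of the 3 pairs of close copies, Serpina3f with Serpina3g and Serpinb9 with Serpinb9b, are shown because they let the copies be compared base by base. They are the 250 bases before a RefSeq start on GRCm38.p6, 5′ to 3′, all on the plus strand, with motif matches in capitals. Serpina3f is at chr12:104214544-104221129 and Serpina3g at chr12:104236147-104241939. Serpinb9 is at chr13:32997061-33017955 and Serpinb9b at chr13:33027414-33040588. The window of Serpinb9 lies inside the span of its gene, before an internal start, while the other windows shown end just before the first base of theirs.
Serpina3f, chr12:104214294-104214543: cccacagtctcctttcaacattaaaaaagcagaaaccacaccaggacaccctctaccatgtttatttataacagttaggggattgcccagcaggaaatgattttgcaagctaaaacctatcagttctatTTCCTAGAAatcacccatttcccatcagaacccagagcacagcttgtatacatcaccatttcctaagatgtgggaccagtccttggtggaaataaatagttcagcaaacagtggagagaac
Serpina3g, chr12:104235897-104236146: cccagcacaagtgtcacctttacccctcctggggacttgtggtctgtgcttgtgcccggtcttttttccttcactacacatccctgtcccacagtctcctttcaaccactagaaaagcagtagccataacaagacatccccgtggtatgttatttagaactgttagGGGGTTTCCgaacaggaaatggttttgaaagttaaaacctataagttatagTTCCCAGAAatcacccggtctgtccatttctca
Serpinb9, chr13:33004291-33004540: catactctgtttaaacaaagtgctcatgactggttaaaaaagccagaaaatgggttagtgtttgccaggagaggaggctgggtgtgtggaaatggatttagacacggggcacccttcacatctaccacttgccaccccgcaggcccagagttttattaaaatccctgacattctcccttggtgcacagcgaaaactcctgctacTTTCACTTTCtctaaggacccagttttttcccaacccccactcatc
Serpinb9b, chr13:33027164-33027413: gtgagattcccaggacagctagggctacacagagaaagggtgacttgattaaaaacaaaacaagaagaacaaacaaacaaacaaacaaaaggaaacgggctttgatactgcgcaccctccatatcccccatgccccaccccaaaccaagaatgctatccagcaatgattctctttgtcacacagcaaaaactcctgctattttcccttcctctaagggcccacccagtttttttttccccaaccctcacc

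Short motifs of 3 kinds were searched on both strands. The GAS motif (TTCNNNGAA) is bound by STAT dimers, the ISRE-like motif (GAAA, any 2 bases and GAAA again) by interferon regulatory factors and the NF-kB motif (GGGNNTTCC) by NF-kB dimers. The window of Serpina3f holds the GAS match TTCCTAGAA from 121 to 113 bases before its first start, and that of Serpina3g holds TTCCCAGAA from 33 to 25 bases before its start. When both windows were aligned, 82.6% of 144 paired bases were identical, and the 9 bases of one GAS match faced the 9 of the other with 8 identical. The window of Serpina3g also holds the NF-kB match GGGGTTTCC, from 84 to 76 bases before the start. GENCODE M21 puts the start of Serpina3g 98 bases downstream of the RefSeq one, so these distances depend on the annotation. The window of Serpinb9 holds the ISRE-like match TTTCACTTTC from 46 to 37 bases before its internal start. In Serpinb9b, whose window is 78.7% identical over 150 paired bases, no match to any of these motifs is in the window. Of the other members, Serpinb6a has a GAS match (TTCCGGGAA) that overlaps an ISRE-like match (TTTCGATTTC) before 1 of its starts, and Serpinb2 has a GAS match (TTCCAAGAA) before 1 of its starts. Serping1 was not among the RefSeq windows, of which 7 members had at least 1. Over all 32851 windows of this length, 7.02% hold the GAS motif, 2.98% the ISRE-like and 4.98% the NF-kB motif. These are matches of letters only.

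Sharing of transcript sequence was counted as the share of a member's 50-base stretches that also occur in another gene of GENCODE M21. It was 10.6% for Serpina3f and 15.9% for Serpina3g, with 138 stretches common to both. Serpina3g shared 9.11% with Serpina3h, which reached at most 17 counts in a library, and 7.01% with Serpina3i, which reached 1. The longest coding transcripts of Serpina3f and Serpina3g were 90.4% identical over 1727 aligned bases. Serpinb6a and Serpinb6b were 87.4% identical over 1147 bases and Serpinb9 and Serpinb9b 85.1% over 1833, but few 50-base stretches were shared within a pair. Of those of Serpinb9, 0.378% were shared with Serpinb9b, and of those of Serpinb6b, 0.367% with Serpinb6a. Serpinb6b shared 3.07% over all other genes, including 2.02% with Serpinb6c. The 25.6% of Serpinb6a came mostly from genes on the opposite strand, namely 1110046J04Rik with 17.3%, at most 2 counts, and Ripk1 with 6.86%, up to 2978 counts. Serpinb9b shared 5.12% with Gm36099 on the opposite strand. The libraries keep strand, but whether the counting used it is not stated in the sources used here. Serpinb2 and Serping1 shared none, although an exon of Serpinb2 overlaps one of Serpinb10 on the same strand.

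**Figure D1:**
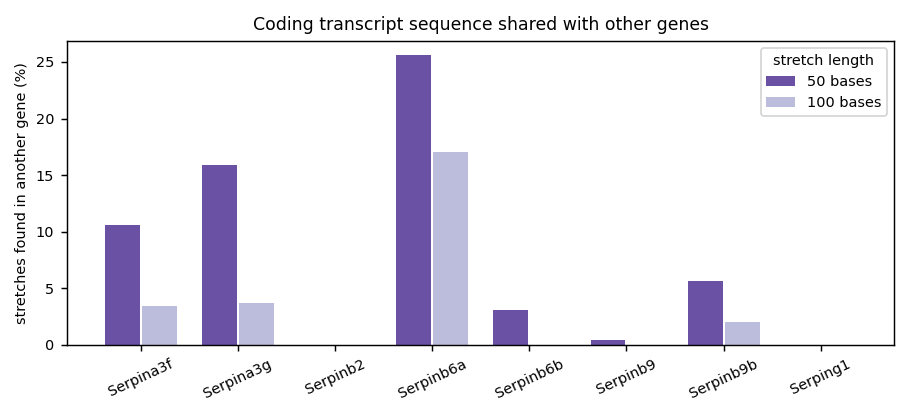
Share of each member's 50-base and 100-base transcript stretches, in percent, that also occur in another gene. At 50 bases the bars reach 25.6% for Serpinb6a and 15.9% for Serpina3g and stand at 0 for Serpinb2 and Serping1, and at 100 bases Serpina3f and Serpina3g drop to 3.40% and 3.67%.

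Levels of different genes were compared per kilobase of the longest transcript. Serpinb9 was the highest of all serpins at 51.2 CPM per kilobase over the 12 libraries, and took 37.6% of the summed serpin CPM. Of the other members, Serpinb6b (28.2), Serpinb6a (19.2) and Serpina3g (16 CPM per kilobase) came next. Serpina3f (3.62) and Serping1 (3.61) were about equal, and Serpinb9b (1.22) and Serpinb2 (0.436) were the lowest members. In AdCL, Serpinb9 lay between 57.9 and 84.2 CPM per kilobase, clear of Serpinb6b at 27.1 to 44.1, which was clear of Serpinb6a at 10.5 to 24.5. Serpina3g reached from 4.08 to 11.2 there and overlapped Serpinb6a. In AdTGFb1 the order was less distinct: Serpinb9 (19.4 to 45.3), Serpinb6b (9.97 to 39.2), Serpinb6a (15 to 29.8) and Serpina3g (16.6 to 38.6 CPM per kilobase) all overlapped. Serpinb9 made up 39.5% to 52.7% of the summed serpin CPM in the AdCL libraries and 18.1% to 32% in the AdTGFb1 libraries. Serpina3g made up 1.34% to 3.63% and 6.08% to 13.5%. The shares of summed CPM in this paragraph are not divided by length, so longer transcripts such as that of Serpinb9 weigh more.

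**Figure D2:**
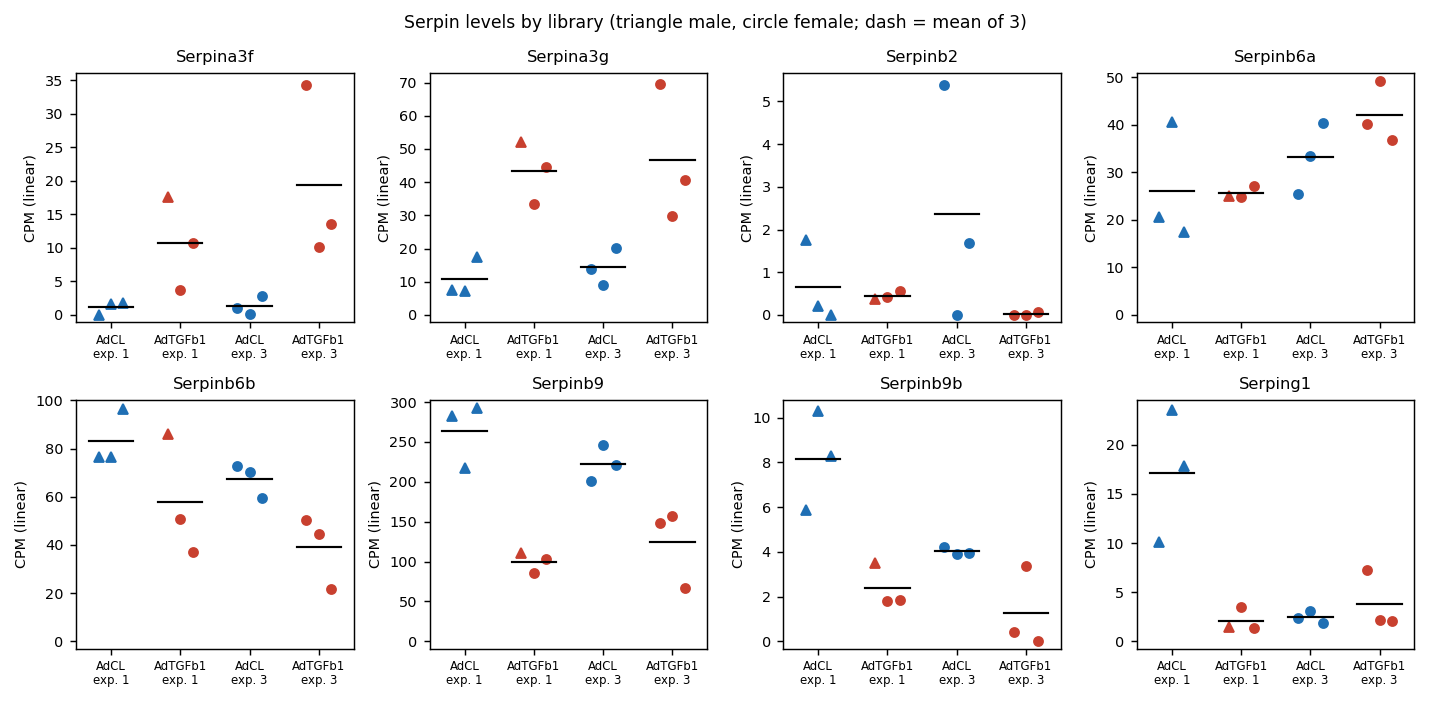
Level of each of the 8 serpins in CPM (linear axis from 0) in the 12 libraries, grouped by vector and experiment; each symbol is 1 library, a triangle if male and a circle if female, and a dash is the mean of 3. Serpina3g lies at 7.36 to 20.2 CPM in AdCL and at 29.9 to 69.7 CPM in AdTGFb1, while Serpinb9 lies at 201 to 292 and at 67.2 to 157 CPM.

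The members were chosen with their difference between the vectors in view, so their levels and edgeR's calls on that contrast, here and in the next paragraphs, are descriptions from which nothing is read. Over both experiments edgeR called 2 of the 8 higher with AdTGFb1, Serpina3f and Serpina3g, and 2 lower, Serpinb6b and Serpinb9. All 6 AdTGFb1 libraries lay above all 6 AdCL libraries for Serpina3f and Serpina3g, and below them for Serpinb9 and Serpinb9b. Of all genes tested 6.32% were apart in this way, 1.86% above and 4.46% below. Within experiment 1 the calls were 2 higher, Serpina3f and Serpina3g, and 2 lower, Serpinb9 and Serping1. There 24.7% of all genes were called, 10.6% higher and 14.1% lower. Within experiment 3 they were 2 higher, the same pair, and 1 lower, Serpinb9, where 6.43% of all genes were called, 1.97% higher and 4.46% lower. Libraries of the vectors were apart for 5 of the 8 members in experiment 1, against 40.5% of all genes (18.8% above and 21.6% below). They were apart for 5 of the 8 in experiment 3, against 24.4% (11.5% above and 12.9% below).

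Serpina3g, known as an inhibitor of cysteine cathepsins in the cytosol of leukocytes, was at 7.44, 7.36 and 17.4 CPM in AdCL DC 7, 8 and 9 and at 52.0, 33.5 and 44.6 CPM in AdTGFb1 DC 14, 52 and 54. In experiment 3 it was at 14.0, 9.04 and 20.2 CPM in AdCL DC 943, 944 and 949 and at 69.7, 29.9 and 40.8 CPM in AdTGFb1 DC 954, 955 and 956. The vectors did not overlap in either experiment, and AdTGFb1 DC 954 was the highest library. The mean was 12.6 ± 5.46 CPM with AdCL and 45.1 ± 14.4 CPM with AdTGFb1 (SD, n = 6 each), a log2 fold change of 1.85 ± 0.28 (SE). It was 2.01 ± 0.38 in experiment 1 and 1.69 ± 0.37 in experiment 3, where the call was lost without AdTGFb1 DC 954 (1.29).

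Serpina3f belongs to the same cluster, whose human counterpart is the single gene for α1-antichymotrypsin. It had 0, 16 and 20 counts in AdCL DC 7, 8 and 9 and 232, 52 and 156 counts in AdTGFb1 DC 14, 52 and 54. In experiment 3 it had 11, 2 and 43 counts with AdCL and 492, 128 and 226 counts with AdTGFb1. AdTGFb1 DC 52, the lowest of its vector at 3.72 CPM, lay above AdCL DC 949, the highest control at 2.88 CPM. The mean was 1.26 ± 1.09 CPM with AdCL and 15 ± 10.5 CPM with AdTGFb1, and the log2 fold change was 3.50 ± 0.68. It was 3.19 ± 0.90 in experiment 1, a call lost without AdTGFb1 DC 14 (2.64), and 3.79 ± 0.90 in experiment 3, a call lost without AdTGFb1 DC 954 (3.10).

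The ratio of the copies was not constant. For each 100 counts of Serpina3g there were 0 to 21.6 counts of Serpina3f in the AdCL libraries and 11.1 to 49.3 in the AdTGFb1 libraries. AdTGFb1 DC 52, with 11.1, lay within the AdCL range. Over the 12 libraries the log2 levels of both genes had a Pearson correlation of 0.92, and 0.76 after the mean of each group was removed, with shared sequence and the same libraries behind both values.

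**Figure D3:**
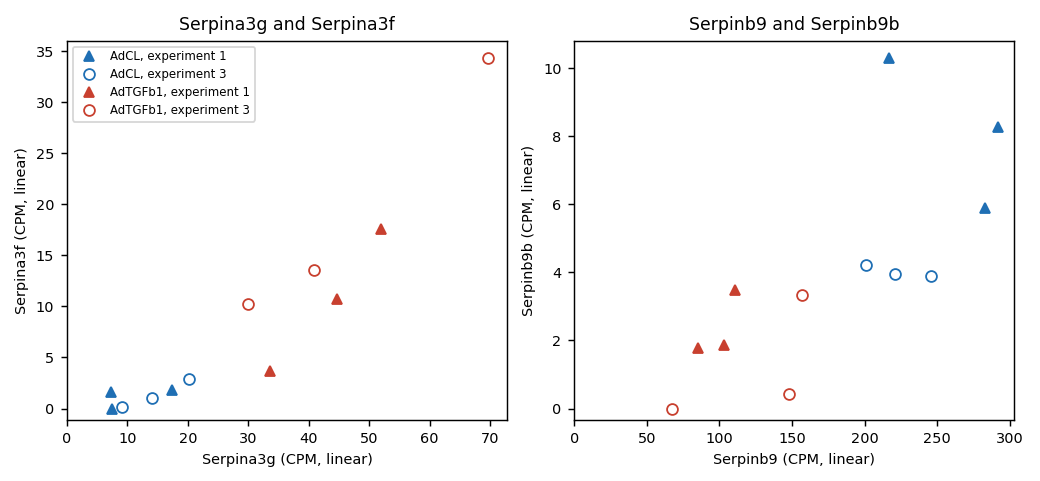
Left, Serpina3f against Serpina3g, and right, Serpinb9b against Serpinb9, in CPM on linear axes, with 1 symbol per library coloured by vector. AdTGFb1 libraries sit at 29.9 CPM of Serpina3g or more and AdCL libraries at 20.2 or less, and on the right AdTGFb1 libraries sit at 157 CPM of Serpinb9 or less and AdCL libraries at 201 or more.

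Serpinb9, the inhibitor of granzyme B that shields antigen-presenting and killer cells from that protease, was at 283, 217 and 292 CPM in AdCL DC 7, 8 and 9 and at 111, 85.4 and 103 CPM in AdTGFb1 DC 14, 52 and 54. In experiment 3 it was at 201, 246 and 221 CPM with AdCL and at 148, 157 and 67.2 CPM with AdTGFb1. The vectors were apart in both experiments, and AdTGFb1 DC 956 was the lowest library. The mean was 243 ± 37.1 CPM with AdCL and 112 ± 35.1 CPM with AdTGFb1, a log2 fold change of -1.12 ± 0.18. It was -1.41 ± 0.22 in experiment 1 and -0.84 ± 0.22 in experiment 3, where the call was lost without AdCL DC 944 (-0.75) or AdTGFb1 DC 956 (-0.55).

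Serpinb9b, its close copy, was a minor transcript with at most 4.76 counts for each 100 of Serpinb9. It was at 5.89, 10.3 and 8.28 CPM with AdCL and at 3.48, 1.79 and 1.86 CPM with AdTGFb1 in experiment 1, and at 4.23, 3.91 and 3.95 and at 0.419, 3.35 and 0 CPM in experiment 3. Every AdTGFb1 library lay below every AdCL library, with 3.48 CPM in AdTGFb1 DC 14 next to 3.91 CPM in AdCL DC 944. The log2 fold change was -1.73 ± 0.72, which edgeR did not call. It was called by DESeq2, and by edgeR without AdTGFb1 DC 955 (-2.68).

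Serpinb6a (chr13:33917918-34002794), an inhibitor of cathepsin G and other granule proteases, did not separate the vectors. It was at 20.6, 40.6 and 17.4 CPM with AdCL and at 25, 24.8 and 27.2 CPM with AdTGFb1 in experiment 1, and at 25.5, 33.5 and 40.5 and at 40.3, 49.3 and 36.8 CPM in experiment 3. The log2 fold change was 0.16 ± 0.21.

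Serpinb6b (chr13:32956811-32979067), its close copy in the same cluster, was at 76.4, 76.3 and 96.6 CPM with AdCL and at 85.9, 50.6 and 36.9 CPM with AdTGFb1 in experiment 1. In experiment 3 it was at 72.7, 70.3 and 59.5 CPM with AdCL and at 50.5, 44.6 and 21.9 CPM with AdTGFb1. AdTGFb1 DC 14 lay among the controls, and the other 5 AdTGFb1 libraries lay below all of them. The mean was 75.3 ± 12.1 CPM with AdCL and 48.4 ± 21.3 CPM with AdTGFb1, a log2 fold change of -0.66 ± 0.21. The call was lost in 8 of the 12 fits that each leave out 1 library (-0.85 to -0.51 over all 12), with a term for sex (-0.49) and in each experiment alone. For each 100 counts of Serpinb6b there were 18 to 68.0 counts of Serpinb6a with AdCL and 29.1 to 169 with AdTGFb1.

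Serpinb2 (chr1:107500892-107525600), or plasminogen activator inhibitor 2, blocks urokinase and was near the floor. It had 17, 2 and 0 counts with AdCL and 5, 6 and 8 with AdTGFb1 in experiment 1, and 56, 0 and 25 counts with AdCL and 0, 0 and 1 with AdTGFb1 in experiment 3. Most of its counts thus came from AdCL DC 943, 949 and 7, and no fold is given.

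Serping1 (chr2:84765360-84775444), the C1 inhibitor, had a pattern that differed between the experiments. It was at 10.1, 23.5 and 17.8 CPM in AdCL DC 7, 8 and 9 and at 1.44, 3.51 and 1.38 CPM in AdTGFb1 DC 14, 52 and 54. In experiment 3 it was at 2.40, 3.09 and 1.88 CPM with AdCL and at 7.26, 2.16 and 2.11 CPM with AdTGFb1. The AdCL libraries of experiment 1 were thus above all others, and the remaining groups overlapped. The log2 fold change was -3.02 ± 0.67 in experiment 1 and 0.64 ± 0.63 in experiment 3, where it was -0.20 without AdTGFb1 DC 954. The difference between these effects was 3.66 ± 0.91, a value of the same kind as the choice of members used. It was called for Serping1 alone of the 8 (6.02% of all genes called, 3.43% higher and 2.59% lower), and the call was lost without AdCL DC 8 (3.34), AdCL DC 949 (3.46) or AdTGFb1 DC 954 (2.81) and with a term for sex (4.21).

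**Figure D4:**
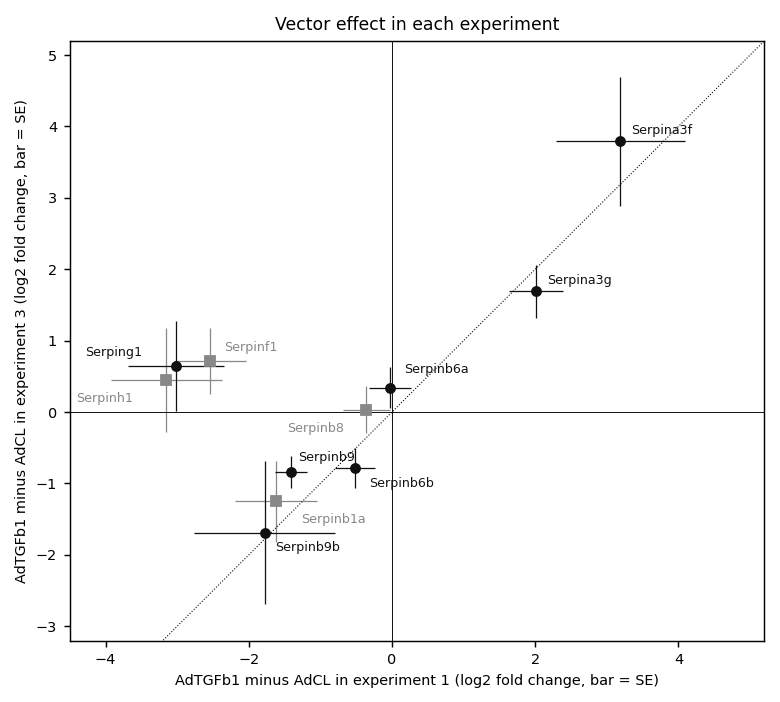
Log2 fold change of AdTGFb1 against AdCL in experiment 1 (x axis) and in experiment 3 (y axis), with bars of 1 SE, for 7 members (black circles) and 4 other tested serpins, Serpinb1a, Serpinb8, Serpinf1 and Serpinh1 (grey squares); the dotted line marks equal values and Serpinb2 is not drawn. Serpina3f, Serpina3g, Serpinb9, Serpinb9b and Serpinb6b have the same sign in both experiments, while Serping1 lies at -3.02 and 0.64.

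Markers of stromal cells, which make much Serping1 in many tissues, were also highest in the AdCL libraries of experiment 1. The sum of 8 endothelial markers was 131 to 484 CPM in AdCL and 25.1 to 41.4 CPM in AdTGFb1 of experiment 1, and 34.6 to 70.7 and 71.1 to 129 CPM in experiment 3. The sum of 6 fibroblast markers was 82.8 to 194 and 21.5 to 68.1 CPM in experiment 1, and 16.4 to 33.9 and 23.9 to 65.9 CPM in experiment 3. None of these 14 markers was at 0 in all libraries and none of those tested was called between the vectors over both experiments. AdCL DC 8 was the highest library for both sums and for Serping1. In experiment 3, AdCL DC 944 was the highest of its group for Serping1 (3.09 CPM) and for both sums (70.7 and 33.9 CPM). AdTGFb1 DC 954, the highest of its vector for Serping1 at 7.26 CPM, had the lowest sums of its group (71.1 and 23.9 CPM). The part of stromal cells in the result was not tested. In these bulk libraries, fewer cells of a type and less RNA per cell cannot be told apart.

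**Figure D5:**
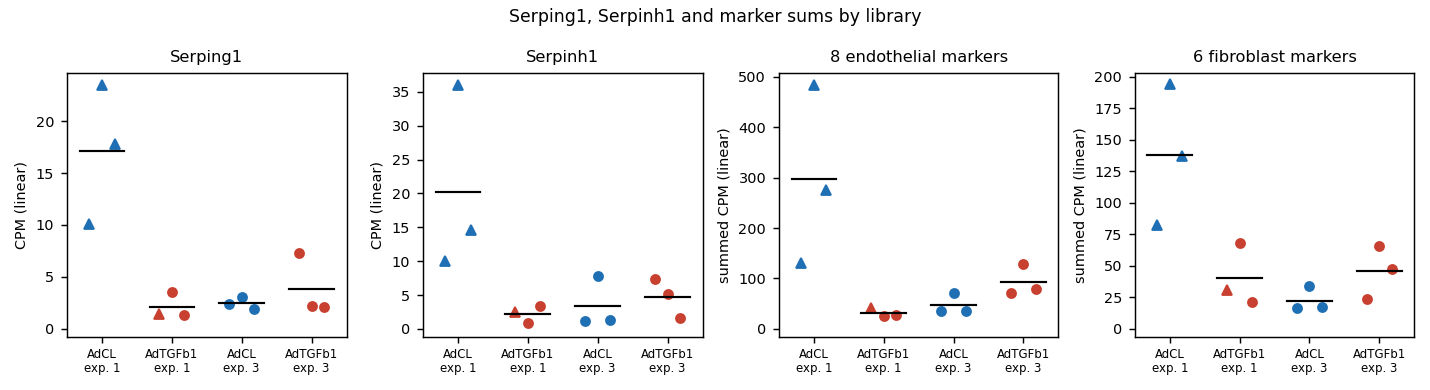
Levels of Serping1 and of Serpinh1, and summed levels of 8 endothelial and 6 fibroblast markers, in CPM (linear axes from 0) by library, a triangle if male and a circle if female, with a dash for the mean of 3. In all 4 panels the highest library is AdCL DC 8 of experiment 1, at 23.5, 36, 484 and 194 CPM.

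Markers of mature DCs and of macrophages also moved with the vector. The sum of 8 markers of mature migratory DCs was 5814 to 6359 CPM with AdCL and 1745 to 2226 CPM with AdTGFb1 in experiment 1, and 4813 to 8267 and 2013 to 3646 CPM in experiment 3, and 7 of the 8 were called lower. The sum of 9 macrophage markers was 2640 to 3523 and 7340 to 10422 CPM in experiment 1 and 6024 to 7830 and 13850 to 17557 CPM in experiment 3, and all 9 were called higher. No marker of either list was at 0 in all libraries. The part of these cells, and of the shift in CD11b DC markers given above, in the levels of Serpina3g, Serpinb9 and Serpinb6b was not tested.

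Experiment 3 was compared with experiment 1 across both vectors. The members were picked with levels in both experiments known, so these values too are descriptions. All male libraries were in experiment 1, so sex is part of this contrast. With 8 members, a count of 0 cannot be told from the share of all genes. By edgeR's quasi-likelihood test 0 of the 8 members differed at a Benjamini-Hochberg adjusted p under 0.05, against 6.43% of all genes (3.57% higher and 2.86% lower), and DESeq2 also called 0. Serpinb6a had the smallest adjusted p (0.16), with a log2 difference of 0.53 ± 0.21, and was the 1 member with an unadjusted p under 0.05. Without AdCL DC 8 that difference was 0.76 and edgeR's adjusted p was 0.023. For Serpinb9 the difference was 0.03 ± 0.18 (edgeR adjusted p = 0.948) and for Serpina3g 0.26 ± 0.27 (edgeR adjusted p = 0.672).

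The rest of the family gave 55 further rows, of which 32 had no count in any library and 12 passed the low-count filter. Of these 12, edgeR called 2 lower with AdTGFb1 and 0 higher, against 10.4% and 6.78% of all genes. The median log2 fold change was -1.39 against -0.002 over all genes tested. Several of the 12 had low counts and wide SEs, such as Serpinc1 (-2.94 ± 1.37), Serpinf2 (-2.71 ± 1.66) and Serpine2 (1.11 ± 0.92), so little is read from that median. Serpinb1a, an inhibitor of neutrophil elastase, fell from 18.4 ± 8.03 CPM to 6.73 ± 4.15 CPM (log2 fold change -1.43 ± 0.42, edgeR adjusted p = 0.0232). That call was lost without AdTGFb1 DC 14 (-1.35), AdTGFb1 DC 54 (-1.38) or AdCL DC 944 (-1.09). Serpinb10, next to Serpinb2 and singled out after its values were seen, had 46, 5, 20, 25, 0 and 1 counts in the AdCL libraries and none in the 6 AdTGFb1 libraries. The pooled AdCL level, 1.42 CPM, was 40.4-fold above the floor of 3 counts over the AdTGFb1 group, 0.0352 CPM. That ratio leaves out the spread between the AdCL libraries, and was 24.8-fold without AdCL DC 7. The vector effect had an edgeR adjusted p of 0.0172, a call lost without AdCL DC 7 and with a term for sex.

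Between the experiments, Serpinb8, an inhibitor of furin, was higher in experiment 3 by 0.86 ± 0.24 (edgeR adjusted p = 0.0416), a call lost in 8 of the 12 fits without 1 library (0.75 to 0.88 in those 8).

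Among these 12 other serpins edgeR called 3 for a vector effect that differed between the experiments, against 6.02% of all genes. Serpinf1, a secreted inhibitor of blood vessel growth, was at 7.44, 16.6 and 6.69 CPM with AdCL and 2.05, 1.58 and 1.65 CPM with AdTGFb1 in experiment 1, and at 9.52, 11.8 and 7.30 and 11.5, 16.2 and 19.1 CPM in experiment 3. Its vector effect was higher in experiment 3 by 3.25 ± 0.68 (edgeR adjusted p = 0.00546, and 0.118 with a term for sex). Serpinh1, the collagen chaperone of the endoplasmic reticulum, was at 10.0, 36 and 14.6 CPM with AdCL and 2.42, 0.931 and 3.44 CPM with AdTGFb1 in experiment 1, and at 1.15, 7.82 and 1.34 and 7.40, 5.11 and 1.57 CPM in experiment 3. Its difference was 3.60 ± 1.05 (edgeR adjusted p = 0.0437, and 0.277 with a term for sex), a call lost in 8 of the 12 fits without 1 library (2.84 to 3.73 in those 8). Serpinf2, the inhibitor of plasmin, had 24, 49 and 45 counts with AdCL and 0, 0 and 1 with AdTGFb1 in experiment 1, and 23, 15 and 9 and 44, 2 and 28 counts in experiment 3 (edgeR adjusted p = 0.0456, 0.248 with a term for sex, lost in 11 of the 12 fits without 1 library). Serpina3n, Serpinb1b, Serpinc1, Serpine2, Serpinf2 and Serpini1, with means between 1.04 and 2.23 CPM, did not pass between the vectors over both experiments.

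Genes of the systems in which these serpins act, or that are known to induce them, were taken from lists, chosen with earlier results of these data known. Over all genes tested 6.78% were called higher and 10.4% lower with AdTGFb1, the shares beside which the counts below stand. Granzymes, of which granzyme B is the target of Serpinb9, and perforin were scarce. Of 11 genes 5 had no count and 3 could be tested, of which edgeR called 2 lower with AdTGFb1. Gzmb, granzyme B itself, had 41, 2, 33, 19, 40 and 52 counts in the AdCL libraries and 0, 1, 0, 0, 6 and 1 in the AdTGFb1 libraries (edgeR adjusted p = 0.0113). Gzma, a granzyme with another cleavage preference, had 5, 19, 18, 53, 11 and 27 counts against 0, 0, 0, 5, 0 and 0 (edgeR adjusted p = 0.0118). Both calls were lost with a term for sex. The sum of 9 markers of T and NK cells, the main makers of granzymes, was 13.3 to 31.1 CPM with AdCL and 20.5 to 30.3 CPM with AdTGFb1 in experiment 1, and 29.1 to 36.6 and 7.35 to 8.52 CPM in experiment 3. Its part in these counts was not tested. Of 14 serine proteases of neutrophils and mast cells, which include targets of Serpinb6a and Serpinb1a, 11 had no count and none passed the filter.

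Cysteine cathepsins, lysosomal proteases that Serpina3g can block in the cytosol, were abundant. Of 11, with legumain, 5 rose with AdTGFb1, 0 fell and 6 did not pass, with a median log2 fold change of 0.66. The shares of all genes were 6.78% higher and 10.4% lower. Ctsl rose from 65.6 ± 18.5 CPM to 147 ± 52.7 CPM (log2 fold change 1.13 ± 0.19, edgeR adjusted p = 0.000441), and Ctsc by 1.07 ± 0.15, Ctss by 0.95 ± 0.16 and Ctsb by 0.66 ± 0.12. For each of these 4 genes all 6 AdTGFb1 libraries lay above all AdCL libraries, as for 1.86% of all genes. In experiment 3 alone the calls of Ctsb (0.40), Ctss (0.48) and the fifth gene, Lgmn (0.34), were lost. The macrophage markers given above were also higher with AdTGFb1. The sum of 8 alveolar macrophage markers, none at 0 in all libraries, was 73.0 to 182 CPM with AdCL and 1073 to 2282 CPM with AdTGFb1 in experiment 1, and 226 to 628 and 74.5 to 129 CPM in experiment 3. The part of these cells in the cathepsin levels was not tested.

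In the plasminogen system, where Serpinb2 acts, 3 of 7 tested genes fell, 0 rose and 4 did not pass. Among all genes 10.4% were called lower and 6.78% higher, and 4.46% had every AdTGFb1 library below every AdCL library. Plat, tissue plasminogen activator, was at 50.9, 28.2 and 28.3 CPM with AdCL and 12.9, 13.2 and 6.67 CPM with AdTGFb1 in experiment 1, and at 26.1, 62.4 and 38.7 and 10.7, 18.7 and 12.9 CPM in experiment 3. Every AdTGFb1 library lay below every AdCL library, and Plat fell by 1.65 ± 0.26 on the log2 scale (edgeR adjusted p = 0.000241). Anxa2 and S100a10, which form a plasminogen receptor, fell by 0.76 ± 0.18 and 0.65 ± 0.18 (edgeR adjusted p = 0.00661 and 0.0175). The call of S100a10 was lost without AdTGFb1 DC 954 (-0.58) or AdTGFb1 DC 956 (-0.54), and both were lost in experiment 1 alone (-0.21 and -0.06). Plau, the urokinase that Serpinb2 blocks, was at 348 ± 130.1 CPM and 296 ± 83.4 CPM (log2 fold change -0.26 ± 0.17, edgeR adjusted p = 0.347), and was called lower without AdCL DC 943 (-0.40, edgeR adjusted p = 0.0287).

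Of the early complement and contact system genes, where Serping1 acts, 10 of 17 in the table could be tested. With AdTGFb1 5 rose, 0 fell and 5 did not pass, with a median log2 fold change of 1.04. Among all genes 6.78% were called higher and 10.4% lower, and 1.86% had all AdTGFb1 libraries above all AdCL libraries. C4b rose from 5.4 ± 3.93 CPM to 29.8 ± 7.80 CPM (log2 fold change 2.46 ± 0.50, edgeR adjusted p = 0.00221), with all 6 AdTGFb1 libraries above all AdCL libraries. The chains of C1q, C1qa, C1qb and C1qc, which are also among the macrophage markers, rose by 1.04 ± 0.13, 1.03 ± 0.13 and 1.46 ± 0.18. C1ra and C1s1, the proteases that the C1 inhibitor binds, were at 4.36 ± 3.19 CPM against 9.98 ± 4.53 CPM and 3.42 ± 3.24 CPM against 1.43 ± 0.813 CPM and did not pass (edgeR adjusted p = 0.104 and 0.546). Without AdCL DC 949, C1ra was called higher (1.85, edgeR adjusted p = 0.0212). The call of the fifth gene, C3, was lost without AdCL DC 7 (1.07), AdCL DC 8 (1.00), AdTGFb1 DC 14 (1.07), AdTGFb1 DC 54 (1.03) or AdTGFb1 DC 954 (1.06).

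Of the genes of interferon-γ signalling, which is known to induce Serpina3g, 13 were tested. With AdTGFb1 5 rose, 2 fell and 6 did not pass, with a median log2 fold change of 0.22. The shares of all genes were 6.78% higher and 10.4% lower. Irf8, an interferon regulatory factor of myeloid cells, rose by 1.16 ± 0.12, and Ciita, the switch of MHC class II genes, by 0.61 ± 0.11 (edgeR adjusted p = 4.03e-06 and 0.000875). Jak2, the kinase of the receptor, fell from 1063 ± 128 CPM to 474 ± 73.7 CPM (log2 fold change -1.17 ± 0.10, edgeR adjusted p = 1.04e-06). The list thus held changes in both directions, as its count shows.

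The genes most similar to each member were taken from the 3 nearest by the Pearson correlation of log2 CPM over the 12 libraries, among genes that averaged 5 CPM or more. The libraries differ by vector, experiment and sex, so these values are descriptions. Serpina3g was most like Gbp2, a guanylate-binding protein induced by interferon (0.96, and 0.90 after group means were removed), Tbc1d10b (0.95) and Samhd1 (0.95). Serpina3f was most like BC017643 (0.94), Arid5b (0.93) and again Gbp2 (0.93). Serpinb9 was most like Gfpt1 (0.96) and Ece1 (0.95), and Serpinb6b most like Cacnb3 (0.90), Cd200 (0.90) and Smurf1 (0.89). For Serpinb9b they were Ppp2r2d (0.96), Sod3 (0.96) and Pop7 (0.95), and for Serping1 Abhd17b (0.93), Ube2o (0.93) and Pogz (0.92). Serpinb6a was nearest to Stoml1 (0.89), and Serpinb2, at its low counts, to Braf (0.81). Among Serpinb6b, Serpinb9 and Serpinb9b the correlation was 0.85 for Serpinb6b with Serpinb9b, 0.76 for Serpinb6b with Serpinb9 and 0.76 for Serpinb9 with Serpinb9b. After group means were removed these were 0.63, 0.72 and 0.73.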

How the data were processed

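RNA of CD11b DCs was measured in 12 libraries, grouped by the vector and experiment in the sample titles. Per the labels' protocols, polyadenylated RNA was made into strand-keeping libraries with 10 cycles of PCR. Per the submitters' processing notes, which give no role or order, the tools were STAR 2.5.0c, HTSeq, DESeq2, FastQC 0.11.4, cutadapt 1.9.1, Trim Galore 0.4.1 and bcl2fastq, and the build was mm9. The authors deposited raw read counts for 24391 gene symbols, of which 7100 had no count in any library. Neither the annotation nor the strand setting used for counting is stated in the sources used here.

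Tests used edgeR 4.0.16 (R 4.3.3) on the counts as deposited, with TMM normalisation, filterByExpr on the 4 groups (13221 genes kept) and two-sided quasi-likelihood tests adjusted by Benjamini-Hochberg over these genes, called at an adjusted p under 0.05. An additive model of experiment and vector gave the vector effect over both experiments and the difference between experiments. A model of 4 group means gave the effects within each experiment and their difference. The SE is the effect over the square root of F. Alternatives were DESeq2 1.42.0, RLE normalisation, no filter, leaving out each library, a term for sex, no experiment term, and leaving out abundant RNAs. Each experiment alone and the female libraries alone were added after the data were seen. Floors of 3 counts cover counting error only, since PCR reads are not independent molecules.

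The members and gene lists were chosen with earlier results of these data known. Named genes are the members, other tested serpins with a mean of at least 1 CPM, up to 4 called genes per list with at least 1 CPM and the smallest adjusted p, and 3 similar genes per member, some of which are not reported here. Serpinb10, Plau, C1ra, C1s1, C3, Lgmn, Ctsk, Plgrkt, Stat2 and Irf9 were added after their values were seen. Coordinates and upstream windows are from RefSeq on GRCm38.p6, and transcripts from GENCODE M21. Both differ from the build of the counts and were used for position, length and sequence only.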

Additional observations from a re-analysis of the deposited data

Results flagged for a closer look

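Among the 6 libraries of each vector, some single libraries lay far from the rest by Dixon's test, which chance alone gives in about 1 of 20 groups. The number of groups searched is not given here, so the list cannot be set against that rate. Serpinb2 was at 5.39 CPM in AdCL DC 943, while the other AdCL libraries lay between 0 and 1.76 CPM. Serping1 was at 7.26 CPM in AdTGFb1 DC 954, while the other AdTGFb1 libraries lay between 1.38 and 3.51 CPM. Serpinb1b was at 2.36 CPM in AdTGFb1 DC 52, Serpine2 at 6.27 CPM in AdCL DC 8, and Serpini1 at 3.81 CPM in AdCL DC 9 and at 5.53 CPM in AdTGFb1 DC 14. Gzma was at 5.10 CPM in AdCL DC 943 and at 0.349 CPM in AdTGFb1 DC 954, Gzmb at 0.479 CPM in AdTGFb1 DC 955, and S100a10 at 207 CPM in AdCL DC 8. The Gzma value in AdTGFb1 DC 954 is 5 counts against 0 in every other AdTGFb1 library, where any count would be flagged. That of Gzmb is 6 counts against 0 or 1.

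The vector effect also differed between the experiments. On the log2 scale, experiment 3 minus experiment 1, the difference for Serping1 was 3.66, a description because the members were chosen with such values known. By edgeR's test of the difference, it was 3.25 for Serpinf1 and 3.60 for Serpinh1, and it was fitted at 7.14 for Serpinf2, a value with little meaning because 1 group held 1 count in all. With a term for sex none of these 4 was called. That fit sets AdTGFb1 DC 14 alone against the male AdCL libraries in experiment 1, so the loss is not put down to sex. Of the 44 list genes tested 9 were called, against 6.02% of all genes (3.43% higher and 2.59% lower). Whether these 9 calls hold with a term for sex is not given here. The difference was -0.84 for Ctsc, -0.95 for Ctss and -0.88 for C1qc, which rose less in experiment 3, and -1.15 for S100a10 and -1.07 for Anxa2, which fell more. The other 4, singled out after their values were seen, were Ctsk (-5.04), Plgrkt (-1.56), Stat2 (0.83) and Irf9 (1.07).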

How the results depend on the processing

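No paired analysis was possible because no DC number is shared between groups. No value changed sign among those called. The count of 4 members called over both experiments was 2 in experiment 3 alone. The 2 other serpins called became 4 with DESeq2 and in experiment 1 alone, 0 in experiment 3 alone, in the female libraries alone and with a term for sex, and 1 to 2 without 1 library. The 22 called list genes became 13 in experiment 3 alone and 14 in the female libraries. Members called between experiments numbered 0 to 1 without 1 library, those with a different vector effect 0 to 2 (0 with a term for sex), and those called within experiment 3 from 1 to 4. Over all genes, 2271 calls between vectors became 748 in experiment 3 alone, 879 in female libraries and 1501 with a term for sex. The 850 between experiments became 1346 with DESeq2 and 547 with a term for sex, and the 3264 within experiment 1 became 1296 with that term. The 850 within experiment 3 ran from 498 to 871 without 1 library. The 796 differences between vector effects became 1286 with DESeq2, 1222 without the filter and 157 with a term for sex, and ran from 530 to 956 without 1 library. Causes were not tested. Depth limits Serpinb2, Serpinb10, Gzma and Gzmb, which had fewer than 60 counts in every library.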
